A study of Mus musculus with 12 samples.

Results

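The nuclear receptor superfamily was followed in the livers of germ-free male C57BL/6j mice injected with ghrelin or with phosphate-buffered saline (PBS). Members were chosen by gene symbol from a list of 44 receptor genes, and other members of the family are not analysed here. All 44 were found among the 38087 genes of the count table. Of the 44, 35 passed the filter on low counts and entered the test, 6 more had counts below the filter and 3 had none. Ghrelin mice (n = 6 libraries) were given 10 µg of the rat peptide subcutaneously, once daily over 5 days. PBS mice (n = 6 libraries) had the same course of vehicle. Ghrelin is the stomach hormone of hunger. The labels place both injections and liver collection at zeitgeber time 2, in the early light phase. All animals were germ-free males without a microbiota, aged 13 to 16 weeks. No label ties each library to its own animal, so the p-values describe the spread between these libraries, part of which may be technical. That spread exceeded sampling noise in every pair of libraries of a group (chi-square per degree of freedom 10.6 to 43.5).

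Nuclear receptors are transcription factors that carry a DNA-binding domain of zinc fingers and, in most members, a pocket for a small lipophilic ligand. In liver they set bile acid, lipid, glucose and drug metabolism according to the ligands that reach the hepatocyte. Many bind DNA as heterodimers with a retinoid X receptor (RXR), others as homodimers or monomers, and they act by exchanging corepressors for coactivators.

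Total counts per library were 15775059 to 22302533, and levels are given as CPM, the count over the library total after scaling by TMM. The hepatocyte markers Alb, Ttr, Apoa1, Cps1, Apob and Serpina1c summed to 88748 to 105626 CPM in ghrelin libraries and 92685 to 126086 CPM in PBS libraries. Adipocyte, pancreatic acinar and adrenal marker lists stayed low, with sums of at most 1.24, 23.5 and 1.51 CPM in ghrelin and 2.90, 23.7 and 1.48 CPM in PBS. The acinar sum was almost all Cela1, while Pnlip and Prss2 had no counts. Neutrophil markers summed to 0.792 to 4.02 CPM with ghrelin and 3.40 to 8.32 CPM with PBS. Both tested markers, S100a8 and S100a9, were negative, and Camp was at 0 in every library. Ly6g and Ngp lay below the filter and were not lower with ghrelin. Their means were 0.0182 and 0.0718 CPM with ghrelin and 0.0164 and 0.0386 CPM with PBS. The part of neutrophils in any result was not tested. Acute phase genes summed highest in PBS 4, PBS 3 and ghrelin 4. These sums were mostly Fgb, Fgg, Hp and Itih3, so the other genes of the list weigh little in them. Means of these genes were 7731, 5697, 2734 and 1621 CPM with ghrelin. With PBS they were 7651, 5541, 3288 and 1642 CPM.

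No receptor gene passed the test. By edgeR's quasi-likelihood test with Benjamini-Hochberg adjustment over all 14170 genes tested, 0 of 35 receptors had an adjusted p under 0.05, and the smallest was 0.191, for Pparg. The background was 0.106% of all genes tested, 0.0423% higher and 0.0635% lower with ghrelin. At an unadjusted p under 0.05 there were 6 receptors, or 17.1%, against 13.4% of all genes (6.44% higher and 6.94% lower with ghrelin). Of the 6, Ppara, Rara, Rxrb and Nr2f1 had positive and Pparg and Esrrg negative log2 fold changes of ghrelin over PBS. The sign was positive for 17 receptors and negative for 18, with a median log2 fold change of -0.01 against 0.00 over all genes. In no receptor were the groups without overlap, which occurred in 0.826% of all genes. DESeq2 called 1 receptor, Pparg, with a background of 1.87% of genes.

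The 95% confidence intervals show how large a change these libraries leave possible. For 24 of the 35 receptors the interval lay within a 1.5-fold change in either direction. For 6 it reached a 2-fold change, and those were Pparg, Esrrb, Esrrg, Nr2f1, Nr4a1 and Nr4a2. The smallest SE of a log2 fold change was that of Rxra, 0.05, and the largest that of Nr4a1, 0.71.

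**Figure D1:**
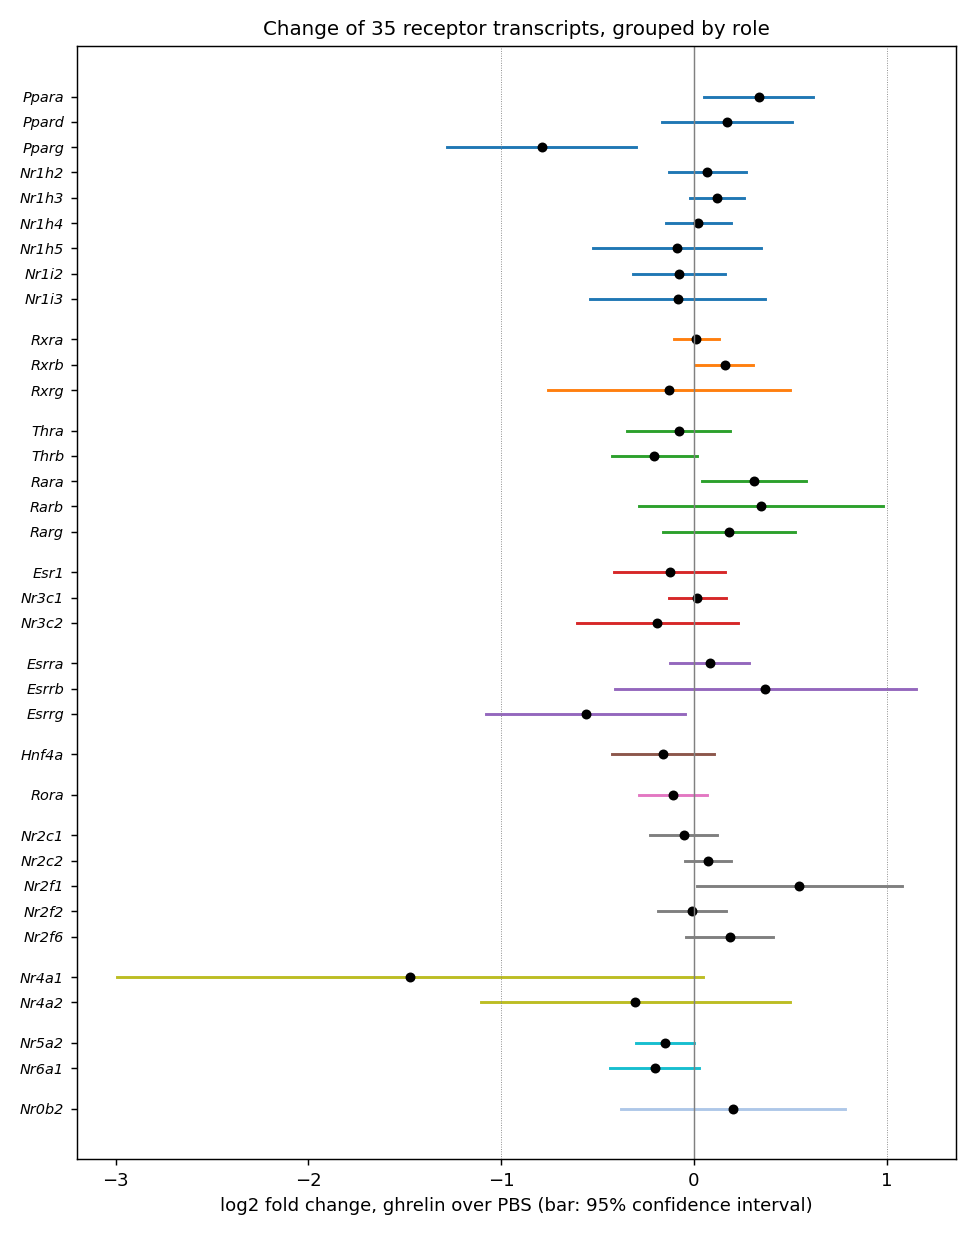
Log2 fold change of ghrelin over PBS (x axis) for the 35 tested receptor genes (y axis), with 1 bar colour per role (top to bottom: lipid and drug sensors, RXRs, hormone and vitamin receptors, steroid receptors, ERRs, HNF4, ROR, NR2, NR4A, NR5 and NR6, and SHP). Points are estimates, bars 95% confidence intervals, and dotted lines mark a 2-fold change; most bars cross 0, and none of the 35 passed the adjusted threshold.

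Levels across genes were compared as CPM per kb of annotated exon, with exon length taken as the union of a gene's exons. Hnf4a, the hepatocyte master regulator that binds DNA as a homodimer, stood at the top in 12 of 12 libraries, with a mean of 140 CPM per kb. Rxra, the obligate partner of the lipid and drug sensors, came next at 58.1 CPM per kb and was in the second rank in 11 libraries. Behind it were the bile acid receptor Nr1h4 (FXR) at 43.2, the fatty acid receptor Ppara at 39.1, the oxysterol receptor Nr1h3 (LXR alpha) at 33.4, and the constitutive androstane receptor Nr1i3 at 29.3 CPM per kb. Nr0b2 (SHP), at 28.4, the orphan receptor Nr2f6, at 27.7, and the pregnane X receptor Nr1i2, at 26.8 CPM per kb, followed closely. From Nr1h4 down to Nr1i2 the order changed between libraries: Nr0b2 ranked from 3 to 11 and Nr1i3 from 2 to 9. Levels per kb also depend on the exon union, of which 74.9% for Nr1i3 and 54.4% for Nr2f6 overlaps a gene on the other strand. Nr3c1, the glucocorticoid receptor, had 15.5 and Nr5a2 (LRH-1) 12.9 CPM per kb. In all, 11 receptors lay at or above 10 CPM per kb, 14 from 1 to 10 and 19 under 1.

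**Figure D2:**
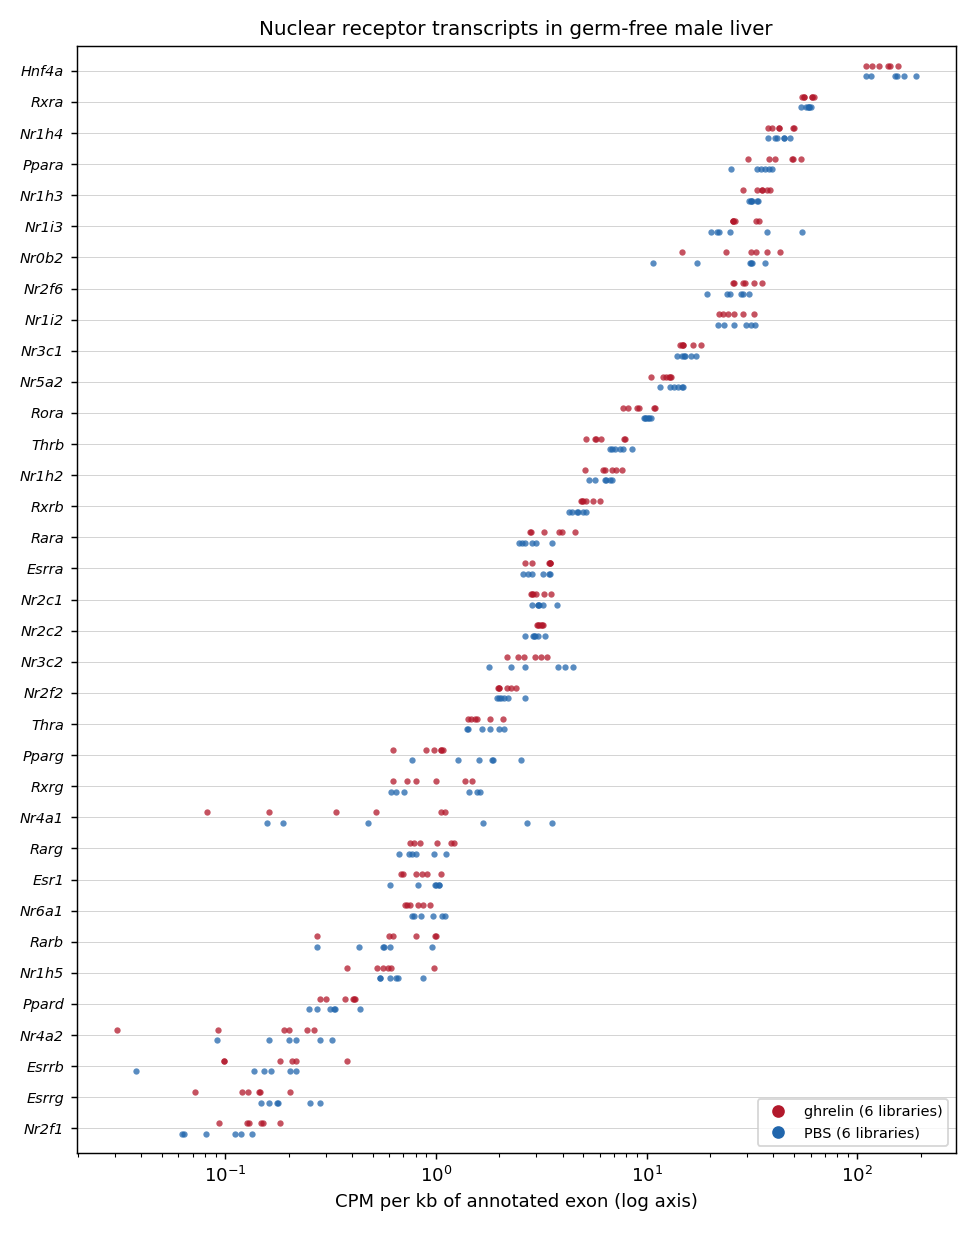
Level of the 35 tested receptor genes (y axis, ordered by mean) in CPM per kb of annotated exon on a log axis (x axis). Each point is 1 library, red for ghrelin above blue for PBS. Hnf4a is highest at a mean of 140 CPM per kb, and the points of the 2 groups overlap for every gene.

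In the RXR, PPAR, LXR and thyroid hormone receptor subfamilies, and in the pair of Nr3c1 and Nr3c2, 1 gene held most of the transcripts. Rxra made up 89.2 to 91.6% of the 3 RXR genes per kb with ghrelin, and 89.5 to 92.1% with PBS. Ppara made up 95.4 to 97.7% of the PPAR genes with ghrelin and 92.1 to 97.1% with PBS. Nr1h3 held 81.5 to 87.4% of the LXR pair with ghrelin and 81.6 to 85.5% with PBS, and Thrb held 73.3 to 84.8% of the thyroid hormone receptor pair with ghrelin and 76.2 to 85.8% with PBS. Nr3c1 exceeded the mineralocorticoid receptor Nr3c2, with 83.5 to 87.2% of the pair with ghrelin and 78.4 to 89.4% with PBS. Per kb of exon neither drug sensor dominated: Nr1i3 was 47.8 to 60.1% of Nr1i2 plus Nr1i3 with ghrelin and 40.8 to 62.6% with PBS. That share depends on the exon union, 4414 bases for Nr1i3 and 2553 for Nr1i2. Of the Nr1i3 union 74.9% overlaps exons of Tomm40l on the other strand. In CPM, without length, Nr1i3 had means of 126 with ghrelin and 133 with PBS, against 66.5 and 70.2 for Nr1i2. Groups overlapped in each of the shares given.

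Among the sensors that pair with RXR, Pparg stood farthest from 0. It encodes the adipogenic PPAR isotype, which is scarce in normal liver and rises in steatosis. Pparg (ENSMUSG00000000440) had 1.85, 2.99 and 3.20 CPM (lowest, median, highest) in ghrelin livers, against 2.27, 5.09 and 7.48 CPM in PBS livers. All ghrelin libraries lay below 5 of the 6 PBS libraries, and the overlap came from PBS 2. The log2 fold change was -0.79 (SE 0.23, adjusted p = 0.191 by edgeR's quasi-likelihood test), and -0.93 to -0.62 when any 1 library was left out. DESeq2 gave an adjusted p of 0.0459. The gene had only 925 counts over the 12 libraries. The 4 adipocyte markers Adipoq, Plin1, Lep and Cidec summed to 0.628 to 1.24 CPM with ghrelin and 0.502 to 2.90 CPM with PBS. Lep was at 0 in every ghrelin library and at most 0.0453 CPM in PBS libraries, while Cidec reached 0.800 CPM with ghrelin and 1.95 CPM with PBS, and the part of these cells in the Pparg values was not tested.

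Ppara (ENSMUSG00000022383), which drives fatty acid oxidation in fasting, had 116, 172 and 208 CPM (lowest, median, highest) in ghrelin livers and 97.0, 137 and 152 CPM in PBS livers. Ghrelin 2, 3, 5 and 6 exceeded every PBS library, while ghrelin 4 was lower than all PBS libraries but PBS 5. The log2 fold change was 0.34 (SE 0.13, adjusted p = 0.297 by edgeR). Ppard, the ubiquitous isotype, had 0.17 (SE 0.16) at 2.73 ± 0.435 CPM with ghrelin and 2.42 ± 0.487 CPM with PBS (SD, n = 6 each).

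For the liver X receptors and FXR the intervals were narrow and included 0. Nr1h3 had 72.3, 88.5 and 96.9 CPM with ghrelin and 76.9, 78.9 and 84.7 CPM with PBS (lowest, median, highest), and its 95% interval ran from -0.02 to 0.26 on the log2 scale. The interval was -0.13 to 0.27 for Nr1h2 (LXR beta) and -0.15 to 0.19 for Nr1h4, which had 86.7, 97.9 and 115 CPM with ghrelin and 86.8, 99.3 and 110 CPM with PBS. The groups overlapped for both genes. Nr1h5, a lanosterol-binding receptor of rodents, had 1.72 ± 0.563 CPM with ghrelin and 1.82 ± 0.343 CPM with PBS (SD, n = 6 each).

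Nr1i3 and Nr1i2 sense drugs and bile acids and control cytochrome P450 genes. Nr1i3 (ENSMUSG00000005677) had 113, 115 and 151 CPM (lowest, median, highest) in ghrelin livers and 88.8, 104 and 242 CPM in PBS livers. The spread of the PBS group came from PBS 1 and PBS 6, and the ghrelin values lay inside the PBS range. The log2 fold change was -0.08 (SE 0.21, 95% interval -0.54 to 0.37), and it was 0.18 without PBS 1. In the reference annotation 74.9% of the Nr1i3 exon length overlaps exons of Tomm40l on the other strand, and whether counting used strand is not given in the sources used here. Nr1i2 had 66.5 ± 9.76 CPM with ghrelin and 70.2 ± 11.4 CPM with PBS, with an interval of -0.31 to 0.16.

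Of the RXR genes, Rxra (ENSMUSG00000015846) had 299, 319 and 339 CPM in ghrelin livers and 294, 320 and 328 CPM in PBS livers (lowest, median, highest). Its log2 fold change of 0.01 had an interval of -0.10 to 0.13. Rxrb, the broadly expressed isotype, had 19.5, 20.1 and 23.7 CPM with ghrelin and 16.9, 18.6 and 20.4 CPM with PBS. Ghrelin 2, 3 and 4 exceeded every PBS library, and the other 3 lay between PBS 2 and PBS 5. The log2 fold change was 0.16 (SE 0.07, adjusted p = 0.34 by edgeR). Rxrg, the isotype of muscle and brain, had 1.43 to 3.41 CPM with ghrelin and 1.40 to 3.72 CPM with PBS, where PBS 1, 5 and 6 were high and PBS 2, 3 and 4 low.

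**Figure D3:**
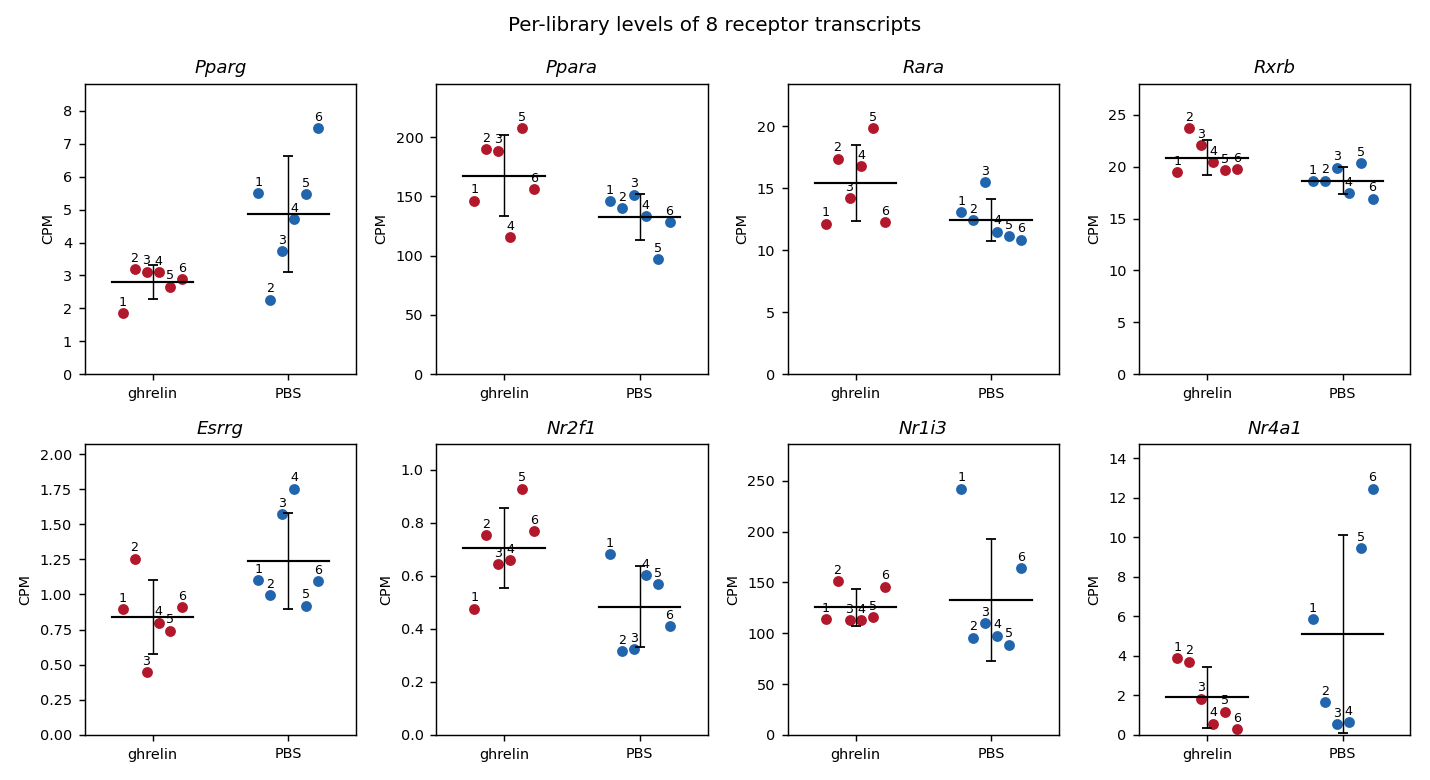
CPM (y axis, from 0) of 8 receptor genes in each library, with ghrelin in red and PBS in blue and replicate numbers beside the points. Bars are the group mean and whiskers 1 SD (n = 6). The groups overlap in every panel, and the Nr4a1 values of PBS 1, 5 and 6 stand above all others.

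Among the hormone and vitamin receptors that pair with RXR, none passed the test. Rara, the main retinoic acid receptor of these livers, had 12.1, 15.5 and 19.9 CPM with ghrelin and 10.9, 12.0 and 15.5 CPM with PBS (lowest, median, highest). Ghrelin 2, 4 and 5 lay above all PBS libraries. The log2 fold change was 0.31 (SE 0.13, adjusted p = 0.305 by edgeR), and without ghrelin 5 it was 0.23. Rarb, a retinoic acid target that nonparenchymal cells also express, had 0.35 (SE 0.30). Of its exon length 34.1% overlaps exons of Top2b on the other strand, a gene at 85.1 CPM with ghrelin and 86.6 CPM with PBS. Rarg had 0.18 (SE 0.16). Thrb, the thyroid hormone receptor of hepatocytes, had 38.0, 43.8 and 58.6 CPM with ghrelin and 49.7, 53.8 and 63.0 CPM with PBS (log2 fold change -0.20, SE 0.10, adjusted p = 0.411 by edgeR). Ghrelin 1, 2, 3 and 5 lay below every PBS library. Thra had -0.08 (SE 0.13), with 5.70% of its exon length shared with a gene on the other strand that had 48.3 CPM with ghrelin and 37.6 CPM with PBS. The part of that overlap in the Thra counts was not tested. Vdr, the vitamin D receptor, which hepatocytes barely express, had 14 counts in all, and its highest value was 0.376 CPM in ghrelin 4.

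The steroid receptors bind cortisol-like hormones, aldosterone and sex steroids. Nr3c1 (ENSMUSG00000024431) had 110, 114 and 139 CPM in ghrelin livers and 108, 116 and 132 CPM in PBS livers (lowest, median, highest), a log2 fold change of 0.02 with an interval of -0.13 to 0.17. Nr3c2, which binds aldosterone and glucocorticoids, had 14.1 to 21.8 CPM with ghrelin and 11.5 to 29.0 CPM with PBS (log2 fold change -0.19, SE 0.20), with PBS 1, 5 and 6 above every ghrelin library. The Nr3c2 log2 fold change was -0.06 without PBS 6, -0.31 without PBS 3 and -0.47 without the 3 libraries with the highest acute phase sums. Esr1, the estrogen receptor of liver, had 11.4 ± 1.90 CPM with ghrelin and 12.5 ± 2.32 CPM with PBS (SD, n = 6 each; log2 fold change -0.12, SE 0.14). Pgr, the progesterone receptor, had 3 counts in all.

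Of the orphan receptors, Hnf4a (ENSMUSG00000017950) had 532, 645 and 754 CPM in ghrelin livers and 534, 737 and 912 CPM in PBS livers, a log2 fold change of -0.16 (SE 0.12). PBS 4 was highest, and without PBS 4 the log2 fold change was -0.08. Hnf4g, the intestinal form, had 36 counts in all. Rora, an activator of clock genes, had 101 to 144 CPM with ghrelin and 127 to 137 CPM with PBS (log2 fold change -0.11, SE 0.08). Nr5a2, which activates bile acid synthesis genes, had 62.2, 74.0 and 77.3 CPM with ghrelin and 68.1, 81.5 and 87.6 CPM with PBS (log2 fold change -0.15, SE 0.07, adjusted p = 0.374 by edgeR). Nr6a1, the germ cell nuclear factor, had -0.20 (SE 0.11).

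The estrogen-related receptors bind no estrogen and drive mitochondrial genes. Esrra, the main one here, had 14.2 ± 1.66 CPM with ghrelin and 13.4 ± 1.62 CPM with PBS (SD, n = 6 each). Esrrg had 0.445, 0.846 and 1.26 CPM with ghrelin and 0.920, 1.10 and 1.75 CPM with PBS (lowest, median, highest; log2 fold change -0.56, SE 0.24, adjusted p = 0.338 by edgeR). In all ghrelin libraries but ghrelin 2 the Esrrg level was below the lowest PBS value. Esrrb had 0.37 (SE 0.37), and 0.10 without ghrelin 5. Esrrg had 246 and Esrrb 244 counts in all.

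Among the NR2 receptors, Nr2f6, which represses inflammatory genes in T cells, had 76.3, 86.2 and 105 CPM with ghrelin and 57.4, 78.8 and 91.2 CPM with PBS (log2 fold change 0.19, SE 0.11, adjusted p = 0.465 by edgeR). Of its exon length 54.4% overlaps Ocel1 on the other strand. Nr2f1 (COUP-TFI) had 0.476, 0.706 and 0.929 CPM with ghrelin and 0.317, 0.490 and 0.681 CPM with PBS (log2 fold change 0.55, SE 0.25, adjusted p = 0.359 by edgeR), from 138 counts in all. Nr2f2 (COUP-TFII), which marks venous endothelium, had 18.4 ± 1.54 CPM with ghrelin and 18.6 ± 2.20 CPM with PBS, with an interval of -0.19 to 0.17. Endothelial markers summed to 441 to 475 CPM with ghrelin and 427 to 484 CPM with PBS, and stellate cell markers to 426 to 520 CPM with ghrelin and 450 to 498 CPM with PBS. In bulk liver, fewer cells of a type and less RNA per cell cannot be told apart. The testicular receptors Nr2c1 and Nr2c2 had -0.05 (SE 0.08) and 0.07 (SE 0.06), and 30.7% of the Nr2c2 exon length overlaps Mrps25 on the other strand. Nr2e3, the photoreceptor factor, had 1 count.

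Nr2e1, Rorb and Nr0b1, receptors of brain, retina and steroidogenic glands, had no counts in any library, which allows up to 0.0127 CPM taken as 3 counts over the 12 libraries. Nr5a1, the steroidogenic factor of adrenal and gonad, had 4 counts. Such limits cover counting error only.

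The receptors differed widely in how far libraries of the same group lay apart. The median within-group SD of log2 CPM was 0.24 over the 35 receptors and 0.19 over all genes tested, and 6 receptors were among the most variable 10% of all genes. Nr4a1, an immediate early receptor that takes no known ligand in its closed pocket and is induced within minutes by stress, feeding or glucagon, had the largest SD, 1.63, above that of 99.9% of genes. Nr4a2 (0.76), Esrrb (0.73), Rarb (0.63), Nr0b2 (0.62) and Rxrg (0.57) followed, most of them at low counts. Nr0b2 was the exception, at 7536 counts in all. The steadiest was Rxra at 0.07, with only 2.56% of genes below it, and next Nr2c2 at 0.08.

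**Figure D4:**
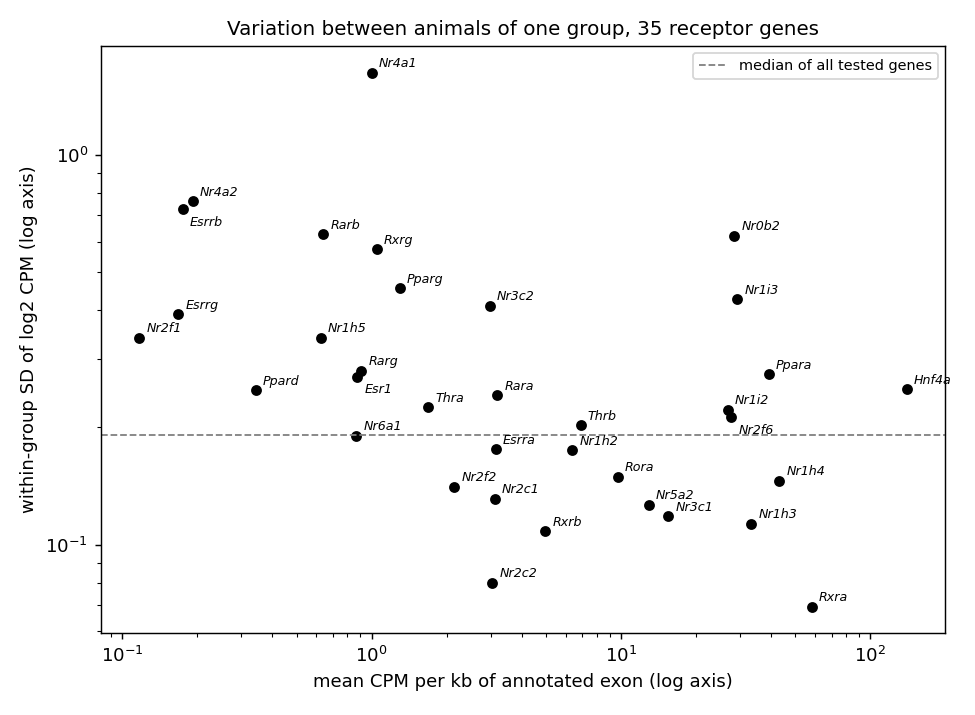
Within-group SD of log2 CPM (y axis, log) against mean CPM per kb of exon (x axis, log) for the 35 tested receptor genes. The dashed line is the median SD of all tested genes, 0.19; Nr4a1 lies highest at 1.63 and Rxra lowest at 0.07.

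Nr4a1 (ENSMUSG00000023034) had 0.288, 1.5 and 3.87 CPM (lowest, median, highest) in ghrelin livers and 0.554, 3.77 and 12.5 CPM in PBS livers. PBS 1, 5 and 6 lay above every ghrelin library, while PBS 2, 3 and 4 lay within the ghrelin range. The log2 fold change was -1.47 (SE 0.71, adjusted p = 0.39 by edgeR), and it was -0.98 without PBS 6. Nr4a3 showed 0.0480 to 0.536 CPM with ghrelin and 0.164 to 1.94 CPM with PBS and stayed below the count filter, and Nr4a2 had -0.30 (SE 0.38), and -0.10 without ghrelin 5. Of 13 immediate early genes tested, 11 had a negative difference (median log2 fold change -0.20), none was called, and 5 lower and 1 higher had an unadjusted p under 0.05. The shares over all genes tested were 6.94% lower and 6.44% higher. Fosb reached 6.18 CPM in PBS 5 against at most 0.629 CPM in the other PBS libraries.

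Nr0b2 encodes SHP, a receptor without a DNA-binding domain that FXR induces and that represses other receptors. Nr0b2 (ENSMUSG00000037583) had 16.6, 36.3 and 48.7 CPM in ghrelin livers and 12.2, 35.2 and 41.2 CPM in PBS livers (log2 fold change 0.21, SE 0.27). Without PBS 4 it was 0.05. Its low values were those of ghrelin 4, PBS 4 and PBS 2. Ghrelin 4 and PBS 4 were also among the 3 libraries with the highest acute phase sums, at 23055 and 30442 CPM. The third of these, PBS 3, had an acute phase sum of 24003 CPM with Nr0b2 at 35.4 CPM, and PBS 2 had a sum of 19089 CPM. The part of this in the Nr0b2 values was not tested.

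Promoters are shown for the steadiest receptor, Rxra, and for Nr0b2 and Nr4a1, which have the most counts of the 6 most variable. RefSeq windows (GRCm38.p6, 250 bases before to 50 after a start) were found for 40 of the 44 receptors, 61 windows in all. Capitals mark the TATA box TATAAA and the cyclic AMP response core TGACG, sought on both strands (CGTCA on the other). For Rxra the first of 2 windows is given, chr2:27676951-27677250 on the plus strand, with 83.0% G plus C and neither motif; the second window has 54.3% G plus C. Nr0b2 lies at chr4:133553126-133553425 on the plus strand, with 49.7% G plus C and a TATA match that starts at -28 from the start. Nr4a1 lies at chr15:101266596-101266895 on the plus strand, with 72.3% G plus C and 4 matches to the cyclic AMP response core.
Rxra: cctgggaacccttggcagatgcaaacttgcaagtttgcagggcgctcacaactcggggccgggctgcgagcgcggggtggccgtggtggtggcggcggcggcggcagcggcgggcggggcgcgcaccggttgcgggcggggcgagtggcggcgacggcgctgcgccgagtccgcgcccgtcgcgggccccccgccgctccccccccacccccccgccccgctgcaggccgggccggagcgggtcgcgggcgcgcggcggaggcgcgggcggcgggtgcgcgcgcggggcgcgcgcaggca
Nr0b2: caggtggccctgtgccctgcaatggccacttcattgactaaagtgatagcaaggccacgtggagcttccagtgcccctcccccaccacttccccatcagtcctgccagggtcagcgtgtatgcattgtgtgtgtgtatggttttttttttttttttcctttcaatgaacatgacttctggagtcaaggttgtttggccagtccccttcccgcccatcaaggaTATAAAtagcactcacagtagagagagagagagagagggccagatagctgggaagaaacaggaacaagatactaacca
Nr4a1: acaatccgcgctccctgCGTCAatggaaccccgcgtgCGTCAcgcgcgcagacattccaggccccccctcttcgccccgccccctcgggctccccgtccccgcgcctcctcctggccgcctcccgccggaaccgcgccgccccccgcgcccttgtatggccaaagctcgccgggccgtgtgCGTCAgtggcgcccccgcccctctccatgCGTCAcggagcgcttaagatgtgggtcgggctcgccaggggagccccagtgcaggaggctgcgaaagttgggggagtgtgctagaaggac
The TATA motif was present in 13.1% of receptor windows and 13.6% of all 32817 windows, and the cyclic AMP response core in 26.2% and 20.8%. The core motif that most receptors recognise, AGGTCA, was found in 18.0% of receptor windows and 16.3% of all windows. As direct repeats spaced by 1 or by 4 bases AGGTCA was found in none of the receptor windows, and in 0.0396% and 0.0152% of all windows. Of the other variable receptors, Rarb and Rxrg had neither the TATA nor the cyclic AMP motif, Nr4a2 had both and Esrrb had the cyclic AMP motif, as did the steady Nr2c2. A match of letters is a description and does not show binding.

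Genes that the receptors act on or with were followed as 14 lists (named for the receptor best known to control them; Klf9, G6pc, Dusp1, Mt1, Mt2, Cyp8b1, Acadm and Pdk4 stand in 2 lists each). Over all genes tested 50% had a negative log2 fold change and the median was 0.00. Genes of a list share the same libraries, and the lists were chosen with earlier results of these data known. Counts of called or negative genes in a list are therefore descriptions and no test of a receptor's part. Leaving out 1 library moved the median of 10 of the 14 lists by over 1.5 times.

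**Figure D5:**
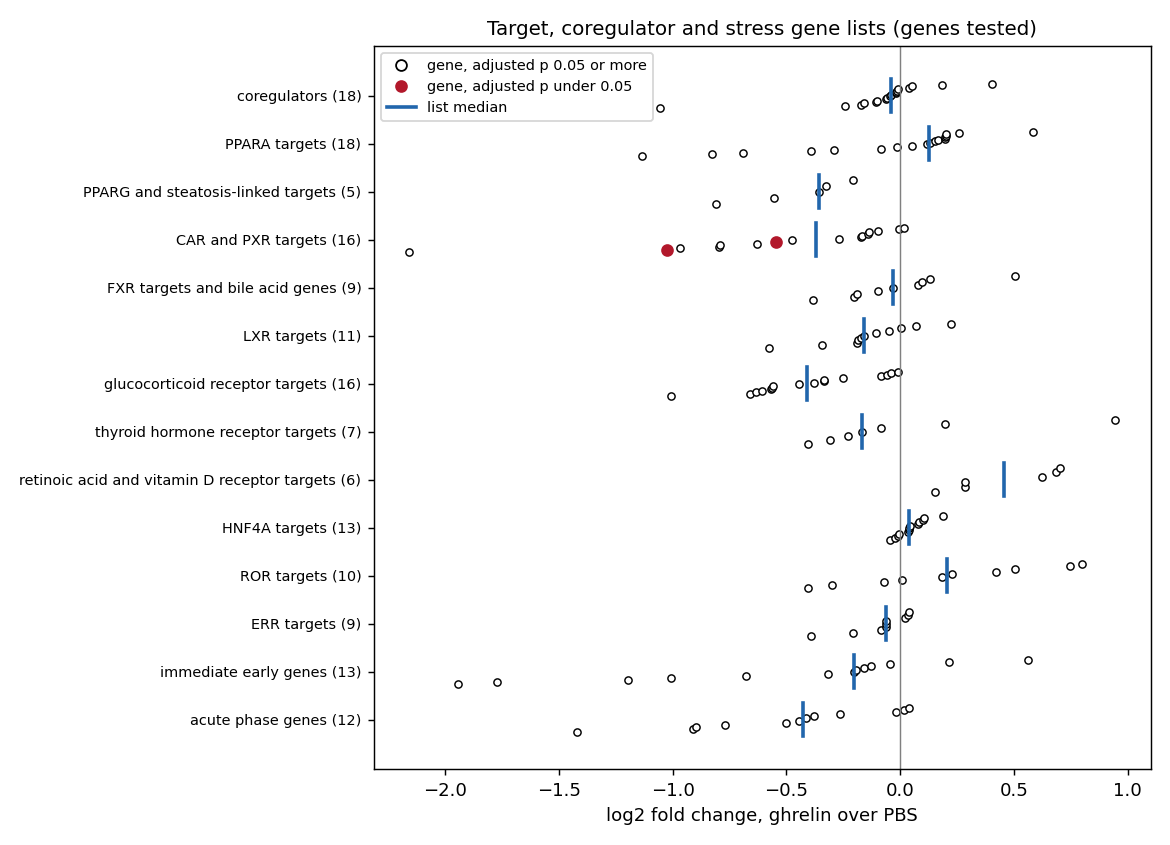
Log2 fold change of ghrelin over PBS (x axis) for each tested gene of 14 lists (y axis, number of genes tested in brackets). Open points did not pass the adjusted threshold, red points did, and blue lines are list medians. The CAR and PXR targets hold the only 2 called genes, and all 16 glucocorticoid receptor targets lie below 0. The lists were chosen with earlier results of these data known.

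Among targets of the drug sensors CAR and PXR, Slco1a4 and Cyp2c37 were called lower with ghrelin. Of 16 tested, 15 had a negative difference (median log2 fold change -0.37), and 2 were called, both lower (background 0.0635% of genes called lower). Because the list was chosen with earlier results of these data known, its distance from the background is no separate result. Slco1a4, an organic anion transporter, fell to 21.9 to 31.6 CPM in ghrelin livers, against 34.7 to 76.4 CPM in PBS livers, without overlap. Cyp2c37, an arachidonic acid hydroxylase, had 200 to 261 CPM with ghrelin and 242 to 371 CPM with PBS, with overlap from ghrelin 4. Adjusted p-values were 0.0292 and 0.0379 by edgeR. The Slco1a4 call was lost without ghrelin 1, 2, 3, 5 or 6 or PBS 3 or 4, and the Cyp2c37 call without ghrelin 1, 2, 3, 5 or 6 or PBS 1, 3, 4 or 6; without ghrelin 3 the adjusted p-values were 0.101 and 0.125. Cyp2c29 had 747 to 1065 CPM with ghrelin and 1071 to 1604 CPM with PBS, also without overlap, at an adjusted p of 0.055. Cyp3a11, the classic PXR target, had 32.7 to 76.9 CPM with ghrelin and 56.1 to 127 CPM with PBS. The 95% intervals of Nr1i3 and Nr1i2 themselves included 0.

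Glucocorticoid receptor targets include enzymes of amino acid breakdown and clock and stress genes. Of 16 tested, 16 had a negative difference (median log2 fold change -0.41), none was called, and 7 had an unadjusted p under 0.05. Over all genes tested 6.94% were lower with ghrelin at that level. This list, too, was chosen with earlier results of these data known. Per1, a clock gene with glucocorticoid response elements, had 10.8 to 16.5 CPM with ghrelin and 15.6 to 28.1 CPM with PBS (adjusted p = 0.0985 by edgeR). Dusp1, a phosphatase of MAP kinases, had 9.26 to 27.8 CPM with ghrelin and 22.6 to 58.5 CPM with PBS. Tat, a tyrosine aminotransferase, had 1233 to 2353 CPM with ghrelin and 1787 to 3065 CPM with PBS. Without the 3 libraries with the highest acute phase sums, 11 of the 16 were negative and the median was -0.19. Mt1 and Mt2 belong to both lists. The acute phase list itself had 10 of 12 negative, a median of -0.43, no call and 0 genes at an unadjusted p under 0.05. Without those 3 libraries its median was 0.18, with 2 negative. PBS 3, PBS 4 and ghrelin 4 were picked by the sum of this same list, so the shift of its median is not a separate result.

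Of 18 Ppara targets, mostly genes of fatty acid oxidation, 11 were positive (median 0.12, and 0.0137 without ghrelin 5), with none called, 3 higher and 1 lower at an unadjusted p under 0.05. Across all genes tested 6.44% were higher and 6.94% lower at that level. Plin2, a lipid droplet coat protein, had 256 to 562 CPM with ghrelin and 238 to 345 CPM with PBS. Vnn1, a pantetheinase, had 4.32 to 9.23 CPM with ghrelin and 5.08 to 16.9 CPM with PBS. Of 5 tested Pparg-linked genes all 5 were negative (median -0.36), with none called. Among them Cd36, a fatty acid translocase, had 23.5 to 40.8 CPM with ghrelin and 26.3 to 53.5 CPM with PBS. Plin4 had 3.94 to 18.5 CPM with ghrelin and 7.97 to 27.0 CPM with PBS. Cidea, Adipoq and Mogat1 of the same list lay below the filter, and only Mogat1 was lower with ghrelin. Their means were 0.0685, 0.327 and 0.348 CPM with ghrelin and 0.0151, 0.314 and 0.471 CPM with PBS.

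LXR targets had 8 of 11 negative (median -0.16, none called). Among the negative, Fasn had 237 to 497 CPM with ghrelin and 324 to 655 CPM with PBS. Srebf1, the lipogenic factor, had 102 to 124 CPM with ghrelin and 107 to 202 CPM with PBS. Lpcat3, 1 of the 3 positive genes, had 65.7 to 90.6 CPM with ghrelin and 56.2 to 75.3 CPM with PBS. FXR targets and bile acid genes had 5 of 9 negative (median -0.03, and 0.0552 without PBS 4; none called). Slc10a1, the bile acid importer, had 392 to 523 CPM with ghrelin and 442 to 577 CPM with PBS. HNF4A targets had 9 of 13 positive with a median of 0.04 and none called, while ERR targets had 6 of 9 negative (median -0.06, none called).

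Thyroid hormone receptor targets had 5 of 7 negative (median -0.17, none called). Dio1, a deiodinase that is a direct target, had a positive difference, at 52.3 to 99.3 CPM with ghrelin and 23.7 to 57.3 CPM with PBS (adjusted p = 0.115 by edgeR). Retinoic acid and vitamin D receptor targets had 6 of 6 positive (median 0.46, none called). Lrat, which esterifies retinol and marks stellate cells, had 23.3 to 49.8 CPM with ghrelin and 10.3 to 35.8 CPM with PBS. Dhrs3, a retinal reductase, had 121 to 155 CPM with ghrelin and 85.7 to 147 CPM with PBS. ROR targets had 7 of 10 positive (median 0.21, and 0.0493 without ghrelin 1; none called). Elovl3, a fatty acid elongase with the smallest p of the list, was at 166 to 450 CPM with ghrelin and 114 to 317 CPM with PBS.

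Coregulators had 14 of 18 negative, but with a median of only -0.04 and none called. The largest change was that of Ppargc1a, the coactivator of PPARs, ERRs and HNF4A in fasting. It had 8.76, 12.1 and 17.5 CPM in ghrelin livers and 17.1, 26.1 and 37.7 CPM in PBS livers (lowest, median, highest). The groups overlapped between 17.1 and 17.5 CPM. Its log2 fold change was -1.06 (SE 0.20, adjusted p = 0.0564 by edgeR). Ppargc1b went the other way, with a log2 fold change of 0.40 (SE 0.24). It had means of 5.59 CPM with ghrelin and 4.20 CPM with PBS. Nrip1, a corepressor, had 19.3 to 27.1 CPM with ghrelin and 22.8 to 35.3 CPM with PBS. Ep300, an acetyltransferase, had 28.5 to 37.0 CPM with ghrelin and 32.5 to 40.5 CPM with PBS. For both, the groups overlapped.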

How the data were processed

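Total RNA of liver was sequenced in 12 libraries after ribosomal RNA depletion with a stranded kit, per the labels' protocols. The authors deposited whole-number exon counts per gene without normalisation. STAR 2.4.0i and the mm10 build are named in the submitters' processing notes; for the counting tool, annotation and strand setting, the sources used here give nothing. Groups and numbers come from the titles. No label pairs animals across groups, so no pairing was used. Counts were filtered with filterByExpr (minimum count 10, minimum total 15), scaled by TMM and tested with edgeR 4.0.16 (quasi-likelihood, two-sided, R 4.3.3) over 14170 genes, with Benjamini-Hochberg adjustment and a threshold of 0.05. SE is the absolute log2 fold change over the square root of F. Exon lengths and overlaps come from GENCODE M21 (GRCm38, the mm10 assembly), and promoter windows from RefSeq. DESeq2 1.42.0 was an alternative. The receptors and lists were chosen with earlier results of these data known; the cyclic AMP motif was added after the promoters were seen. Receptors with values in full were those with an unadjusted p under 0.05 or among the 8 highest per kb. Nr3c1, Thrb, Nr5a2 and Nr4a1 were given likewise, chosen after their values were seen. Of each list at most 4 genes with the smallest p are named. Mt1, Mt2, Ppargc1b, Cidea, Mogat1, Adipoq, Fgb, Fgg, Itih3 and the list overlaps are named besides.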

Additional observations from a re-analysis of the deposited data

Results flagged for a closer look

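In groups of 6 libraries, a sample was set apart where its gap to the nearest other exceeded Dixon's 95% limit as a share of the group's range. Chance sets apart about 1 group in 20, and 15 of 178 groups were, 2 of them among 70 groups of receptor genes. PBS 6 was high for Nr2f2 (22.8 CPM, others 16.7 to 18.9) and for Nr1h5 (2.46 CPM, others 1.53 to 1.86). PBS 5 was high for 3 immediate early genes, Atf3 (10.6 CPM), Jun (28.3 CPM) and Fosb (6.18 CPM). PBS 1 was high for Plin2 (345 CPM) and Klb (87.6 CPM), and PBS 3 for Orm2 (99.0 CPM). Ghrelin 4 was high for Cd36 (40.8 CPM), Cyp2c37 (261 CPM) and Fasn (497 CPM). Ghrelin 2 was high for Vnn1 (9.23 CPM), Klf9 (205 CPM) and Acadm (299.5 CPM), and ghrelin 5 for Jun (12.9 CPM).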

How the results depend on the processing

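Counts of calls, log2 fold changes and list medians were recomputed under 20 alternatives, 1 of which (without the 3 libraries with the highest acute phase sums) was chosen after seeing the data. Receptors called numbered 0 in each edgeR fit and 1 with DESeq2. All genes called numbered 15, and 63 without the count filter, 9 with robust estimation, 58 with the replicate block, 221 with DESeq2 and 0 to 32 with 1 library left out. None was called without ghrelin 1 or without ghrelin 3, and 32 without ghrelin 4. List genes called numbered 2, and 7 without the count filter, 1 with robust estimation, 7 with the replicate block, 9 with DESeq2, 0 without the 3 acute phase libraries and 0 to 5 with 1 library left out. The cause of these shifts was not tested. No label pairs same-numbered libraries, whose deviations correlated at -0.08 to 0.27, and 3 of 6 ghrelin libraries correlated best with their own number. Of 698 receptor values 677 kept sign and side of the threshold, 1 gained it (Pparg, DESeq2) and 20 changed sign, all in 8 genes near 0. With 1 library left out the log2 fold changes ran from -0.0160 to 0.0661 for Nr1h4, -0.257 to 0.0224 for Nr1h5, -0.173 to 0.179 for Nr1i3, -0.0018 to 0.0333 for Rxra, -0.281 to 0.0124 for Rxrg, -0.0255 to 0.0533 for Nr3c1, -0.0931 to 0.0018 for Nr2c1 and -0.0456 to 0.0600 for Nr2f2. The Nr1i3 log2 fold change was 0.0116 with the replicate block, the Nr2f2 log2 fold change was 0.0044 with upper-quartile factors, and Nr2c1 had 0.0038 without the acute phase libraries. The Orm2 log2 fold change ran from -1.20 to 0.0247, positive without PBS 3, and without the acute phase libraries Lcn2 had 0.0637 and Hp 0.0018. Lcn2 and Hp belong to the list whose sum picked those libraries. With 1 library left out, 24 of 35 receptor values, none of them called, moved by over 1.5 times or changed sign, and list medians ran from 0.0137 to 0.189 for PPARA, -0.508 to -0.229 for PPARG, -0.0549 to 0.0552 for FXR, -0.161 to -0.0967 for LXR, 0.0493 to 0.314 for ROR, -0.312 to -0.168 for immediate early and -0.642 to -0.130 for acute phase genes. Levels, shares and SDs were not recomputed. Nr2f1 and Nr4a2 have no value under a minimum mean of 1 CPM. Low counts limit Nr2f1, Esrrb, Esrrg, Nr4a2 and Pparg.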
